A study of Mus musculus with 6 samples.

Results

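A set of 10 immediate early genes of mouse biceps muscle was examined after neonatal denervation, namely Nr4a1, Nr4a3, Fos, Jun, Junb, Jund, Egr1, Atf3, Ier2 and Btg2. They were chosen by symbol, and all 10 were found among the 13105 genes of the deposited expression table. The muscles were whole biceps of CD-1 mice. The C5-T1 part of the brachial plexus, the nerve network of the forelimb, had been excised on one side at postnatal day 5. Both biceps of each mouse were taken at postnatal day 26, 3 weeks later. The data therefore hold 3 denervated biceps and 3 control biceps from the same 3 mice, the control being the uninjured opposite limb of an operated animal. Each muscle was snap frozen and gave 1 library of total RNA, so p-values rest on the spread among 3 muscles in each group. The main model did not pair both muscles of a mouse.

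Immediate early genes are switched on within minutes of a stimulus, without new protein synthesis. In muscle and neurons, calcium entry, cAMP and MAP kinases act through CREB, SRF with its Elk partners, and MEF2 on their promoters, and many of their mRNAs are short-lived. Most of the products are transcription factors. Fos and Jun proteins pair to form AP-1, Egr1 is a zinc finger factor, Nr4a1 and Nr4a3 are orphan nuclear receptors, Atf3 is a stress-induced member of the ATF/CREB family, and Btg2 restrains cell division and helps to shorten mRNA tails. In adult muscle, exercise and β-adrenergic signals are known to raise Nr4a1 and Nr4a3.

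Levels are given in TPM, the transcript abundance reported by kallisto, which is per unit of length and relative to all other transcripts of a library. The median gene was higher in denervated than in control muscle by 0.71 (log2) on the deposited values, and 10946 of the 12268 genes tested had a positive difference. Each gene was therefore also read after median-of-ratios scaling, which puts the median gene at 0.00. Here "rose" and "fell" are kept for genes that passed in limma on both scales with the same sign, at an adjusted p under 0.05 over all genes tested. The 8 fibre markers were abundant in every library, summing to 23482 to 31027 TPM in denervated and 32013 to 37865 TPM in control muscle. The denervation labels were checked with Chrna1, Chrng, Myog, Ncam1, Runx1 and Gadd45a, genes known to be raised in muscle without its nerve. All 6 rose, and Chrng, the fetal acetylcholine receptor subunit, measured 43.6 to 66.5 TPM in denervated and 2.30 to 2.38 TPM in control muscle. These are bulk samples, in which fewer cells of a type and less RNA per cell cannot be told apart.

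At 3 weeks after nerve excision the 10 genes did not move as a block. Jun and Junb rose, Nr4a1 fell, and the other 7 did not pass the test on both scales. On the deposited values, 5 members were called higher (Jun, Junb, Egr1, Atf3 and Btg2), where 69.9% of all genes tested were, and 1 was called lower (Nr4a1), where 4.5% were. On the scaled values 2 were called higher, against 15.3% of all genes, and 2 lower (Nr4a1 and Nr4a3), against 18.8%. On both scales together 2 of 10 rose, beside 15.3% of all genes, and 1 of 10 fell, beside 4.5%. The median change of the members was 0.49 on the deposited and -0.16 on the scaled values, beside 0.71 and 0.00 for all genes. These counts stand near the shares of all genes and are not particular to the members. All 10 members passed the filter on low values, which asked for 1 TPM in 3 libraries, but Junb passed it through its denervated libraries alone.

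**Figure D1:**
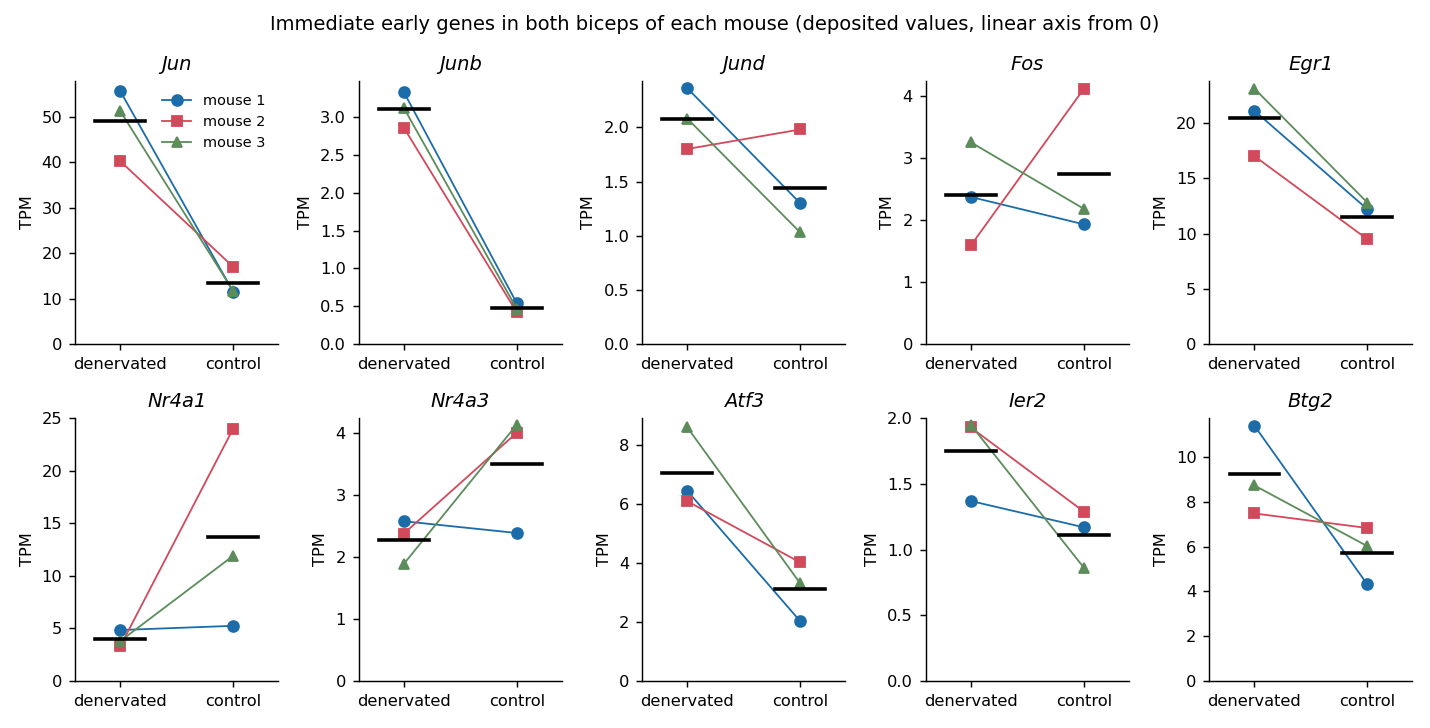
TPM of each gene in the denervated (left) and the control (right) biceps, with a line joining both muscles of a mouse and a black bar at the group mean; each vertical axis is linear and starts at 0. Jun and Junb are higher in every denervated muscle, while Nr4a1 is low in all 3 denervated muscles and spreads 4.58-fold among the control muscles.

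The Jun family held the clearest rises. Jun, which forms AP-1 with Fos proteins or with itself, is a single-exon gene on chromosome 4 (GRCm38, 95049034 to 95052222, minus strand). It measured 55.6, 40.2 and 51.2 TPM in the denervated biceps of mice 1, 2 and 3, and 11.5, 17.0 and 11.7 TPM in their control biceps. Every denervated muscle stood above every control muscle, and the gap was narrowest in mouse 2. The means were 49.0 ± 7.93 TPM in denervated and 13.4 ± 3.13 TPM in control muscle (SD, n = 3 each), which made Jun the most abundant of the 10 genes in denervated muscle, while in control muscle its mean was just under the 13.7 TPM of Nr4a1. The log2 difference was 1.80 ± 0.19 (SE) on the deposited values, with a limma adjusted p of 8.56e-05. After scaling it was 0.93 ± 0.14, with an adjusted p of 0.00233. The groups stayed apart after scaling, and Jun was called under all alternatives run on either scale.

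Junb, a Jun relative with weaker transactivation that is known to favour muscle mass, was far less abundant. It lies on chromosome 8 (84974484 to 84978718, minus strand) and measured 3.33, 2.86 and 3.12 TPM in denervated muscle, against 0.543, 0.424 and 0.469 TPM in control muscle. All 3 control muscles were below 1 TPM and all 3 denervated muscles well above it. The log2 difference was 1.47 ± 0.15 on the deposited values (limma adjusted p = 7.39e-05) and 0.98 ± 0.12 after scaling (adjusted p = 8.57e-04). The deposited difference was nearly the same in each mouse, at 1.49, 1.44 and 1.49, and the scaled one was 0.81, 1.08 and 1.04. Because the deposited log2 values add 1 to each TPM, they understate the change of a gene this low. With 0.1 in place of 1, the Junb difference was 2.47, and with every gene kept in the test its adjusted p was 1.27e-04.

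Jund, the family member usually present at rest and known to restrain cell growth, was not called on either scale. It measured 2.36, 1.80 and 2.08 TPM in denervated muscle and 1.30, 1.98 and 1.03 TPM in control muscle. The groups overlapped through mouse 2, whose control muscle stood above its denervated one. Its log2 difference was 0.35 ± 0.19 (limma adjusted p = 0.111) on the deposited values and -0.22 ± 0.15 (adjusted p = 0.328) after scaling, so that its sign depended on the scale. On the deposited values it was called without control replicate 2 (adjusted p = 0.0391) and without both muscles of mouse 2 (adjusted p = 0.0369). Its level is uncertain, because 50.1% of its stretches of 31 bases also occur in other genes. Gm11175, an antisense gene that overlaps it, shares the most of them. For Jun the share in other genes was 6.39%, with its antisense partner Junos sharing the most. For Junb it was 6.51%, with the overlapping Prdx2 sharing the most. Prdx2 lies on the opposite strand of Junb, and without strand their shared reads cannot be told apart.

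Fos, the prototype immediate early gene and partner of the Jun proteins, measured 2.37, 1.59 and 3.25 TPM in denervated muscle and 1.93, 4.11 and 2.18 TPM in control muscle. It was higher in the denervated muscle of mice 1 and 3 and lower in that of mouse 2, and the groups overlapped. The log2 difference on the deposited values was -0.12 ± 0.26 (limma adjusted p = 0.674). After scaling the values were 1.48, 1.25 and 2.55 in denervated muscle against 2.68, 5.23 and 3.14 in control muscle, without overlap. That scaled difference was -0.76 ± 0.25, with an adjusted p of 0.0538. The scaled call was gained without control replicate 1 (adjusted p = 0.0488) or without denervated replicate 3 (adjusted p = 0.0329).

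The balance of the Jun family against Fos itself can be read without regard to the scale, since a ratio inside a library does not depend on it. The summed TPM of Jun, Junb and Jund was 25.8, 28.3 and 17.4 times that of Fos in denervated muscle, and 6.89, 4.72 and 6.07 times in control muscle. The lowest denervated ratio was above the highest control ratio. This ratio takes Fos alone and leaves out its relatives, so it does not describe AP-1 as a whole. Among those left out, Fosl2 measured 23.1, 20.3 and 16.7 TPM in denervated and 2.65, 4.20 and 2.83 TPM in control muscle. Jun itself made up 90.7%, 89.6% and 90.8% of the Jun family TPM in denervated muscle, against 86.1%, 87.6% and 88.6% in control muscle, so it dominated the family in both. These ratios show that the transcripts changed unequally, not which of them changed.

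Promoter sequences of these AP-1 genes are shown because Jun and Junb rose while Fos did not pass the test. The windows run from 250 bases before to 50 after the RefSeq start site on GRCm38.p6, read 5′ to 3′ on the gene's strand. Capitals mark the core of the cAMP response element (TGACG, or CGTCA on the other strand), the docking sequence of CREB and ATF proteins, and matches to the MEF2 site.
Jun promoter: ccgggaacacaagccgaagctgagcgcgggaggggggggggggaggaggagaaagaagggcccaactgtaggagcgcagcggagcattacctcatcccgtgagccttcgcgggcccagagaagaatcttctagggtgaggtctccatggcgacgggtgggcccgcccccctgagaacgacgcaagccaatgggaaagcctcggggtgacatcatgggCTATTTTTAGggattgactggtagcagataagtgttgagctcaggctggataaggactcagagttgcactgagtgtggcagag
Junb promoter: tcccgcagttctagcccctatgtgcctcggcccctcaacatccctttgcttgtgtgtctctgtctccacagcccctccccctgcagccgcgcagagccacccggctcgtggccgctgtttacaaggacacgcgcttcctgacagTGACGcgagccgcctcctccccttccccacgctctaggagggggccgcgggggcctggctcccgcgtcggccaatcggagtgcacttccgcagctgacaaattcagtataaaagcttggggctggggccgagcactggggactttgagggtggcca
Fos promoter: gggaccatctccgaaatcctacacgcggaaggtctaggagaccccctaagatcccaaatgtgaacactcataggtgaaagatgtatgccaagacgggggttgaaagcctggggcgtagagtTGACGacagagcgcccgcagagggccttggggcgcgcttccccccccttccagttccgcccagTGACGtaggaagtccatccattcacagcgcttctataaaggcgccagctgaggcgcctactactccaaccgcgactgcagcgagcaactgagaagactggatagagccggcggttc
The Jun window held a MEF2 site, 33 to 24 bases before the start, and no cAMP response element core. The Junb window held 1 core and the Fos window held 2, at -129 to -125 and at -66 to -62.

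Nr4a1 had the largest scaled difference of the 10 genes and the largest spread among control muscles. This nuclear receptor gene lies on chromosome 15 (101254269 to 101274795, plus strand). It measured 4.84, 3.29 and 3.79 TPM in the denervated biceps of mice 1, 2 and 3, and 5.24, 24.0 and 11.9 TPM in their control biceps. The 3 denervated muscles were alike, whereas the control muscles differed widely, and in mouse 1 both muscles stood close together. The groups did not overlap on either scale, although the lowest control muscle was barely above the highest denervated one before scaling. The log2 difference was -1.35 ± 0.41 on the deposited values (limma adjusted p = 0.0138) and -2.12 ± 0.43 after scaling (adjusted p = 0.00832).

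By mouse, the deposited Nr4a1 difference was -0.10, -2.54 and -1.43, and the scaled one was -1.04, -3.13 and -2.18, so that mouse 2 carried the largest share on both. Without mouse 2 the deposited difference was -0.76, and without control replicate 2 alone it was -0.86, both still past the threshold, with adjusted p of 0.0368 and 0.0203. Without mouse 3 the scaled difference was -2.09, and its adjusted p of 0.0774 no longer passed. In the authors' deposited table, made with a test that no source used here names, Nr4a1 had an adjusted p of 0.108. Among control muscles, 1.11% of the genes tested had a larger scaled spread than Nr4a1, against 71.5% among denervated muscles.

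Nr4a3, the close relative of Nr4a1, lies on chromosome 4 (48045153 to 48086447, plus strand). It measured 2.58, 2.38 and 1.89 TPM in denervated muscle and 2.39, 4.01 and 4.14 TPM in control muscle. Mice 2 and 3 were higher in the control muscle, while both muscles of mouse 1 were alike, and the groups overlapped. For Nr4a3 the log2 difference was -0.44 ± 0.20 on the deposited values (limma adjusted p = 0.0712). On the scaled values the groups separated, at 1.60, 1.87 and 1.48 in denervated against 3.31, 5.10 and 5.95 in control muscle. The scaled difference was -1.10 ± 0.19, with an adjusted p of 0.00395, and the deposited one was called without control replicate 1 (adjusted p = 0.0207) or without both muscles of mouse 1 (adjusted p = 0.0208). The ratio of Nr4a1 to Nr4a3 TPM was 1.87, 1.39 and 2.01 in denervated and 2.19, 5.97 and 2.87 in control muscle.

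The promoters of both receptors are shown because these genes had the lowest scaled differences of the 10 and share a dense set of cAMP response element cores, again in capitals.
Nr4a1 promoter: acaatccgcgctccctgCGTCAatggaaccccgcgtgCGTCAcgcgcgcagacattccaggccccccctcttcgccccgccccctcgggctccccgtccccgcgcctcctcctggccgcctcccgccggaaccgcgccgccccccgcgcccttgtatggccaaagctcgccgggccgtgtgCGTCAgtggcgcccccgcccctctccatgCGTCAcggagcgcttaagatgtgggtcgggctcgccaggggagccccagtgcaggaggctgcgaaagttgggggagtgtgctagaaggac
Nr4a3 promoter: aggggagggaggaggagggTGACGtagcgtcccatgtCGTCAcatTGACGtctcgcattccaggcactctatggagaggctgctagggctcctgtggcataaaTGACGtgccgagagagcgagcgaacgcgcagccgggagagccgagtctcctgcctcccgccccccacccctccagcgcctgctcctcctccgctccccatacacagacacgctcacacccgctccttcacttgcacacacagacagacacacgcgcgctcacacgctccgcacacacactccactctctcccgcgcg
Each window held 4 cores. In Nr4a1 they fell at -233, -213, -69 and -40 from the start site, counted at their first base. In Nr4a3 they fell at -231, -213, -205 and -147. Of the 32851 promoters of the same length, 0.231% held at least 4, and 20.8% held at least 1. The cut of 4 is the count found in both of these windows, so that share is a description and not a test.

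Promoter windows of 8 of the 10 genes were searched on both strands. Egr1 was left out of the search and Ier2 had no window, so the counts below say nothing of these genes. At least 1 core was found in 6 of 8 (Nr4a1, Nr4a3, Fos, Junb, Atf3 and Btg2). In Btg2 the 2 cores overlap and form the full element TGACGTCA, which 1.79% of all promoters held. A MEF2 site was found in Jun and Atf3, against 3.19% of all promoters. An EGR site (GCGNGGGCG) was found in Nr4a1 and Btg2, against 5.55%, and a TATA box (TATAAA) in Fos and Junb, against 13.6%. The TATA match lay at -33 to -28 in Fos but at 0 to 5 in Junb, on the start site used. That RefSeq start of Junb, at 84978748, is upstream of its GENCODE start at 84978718. An AP-1 site (TGANTCA, held by 7.81% of all promoters), a CArG box (1.63%) and the Nr4a element AAAGGTCA (1.51%) had no match in these 8 windows. The Jund window starts from a RefSeq site at 70697739, upstream of the GENCODE gene start at 70698949, and held none of these motifs. A match is a description of the letters, not a site or a cause, and the absence of one says only that these letters are not in this window.

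**Figure D2:**
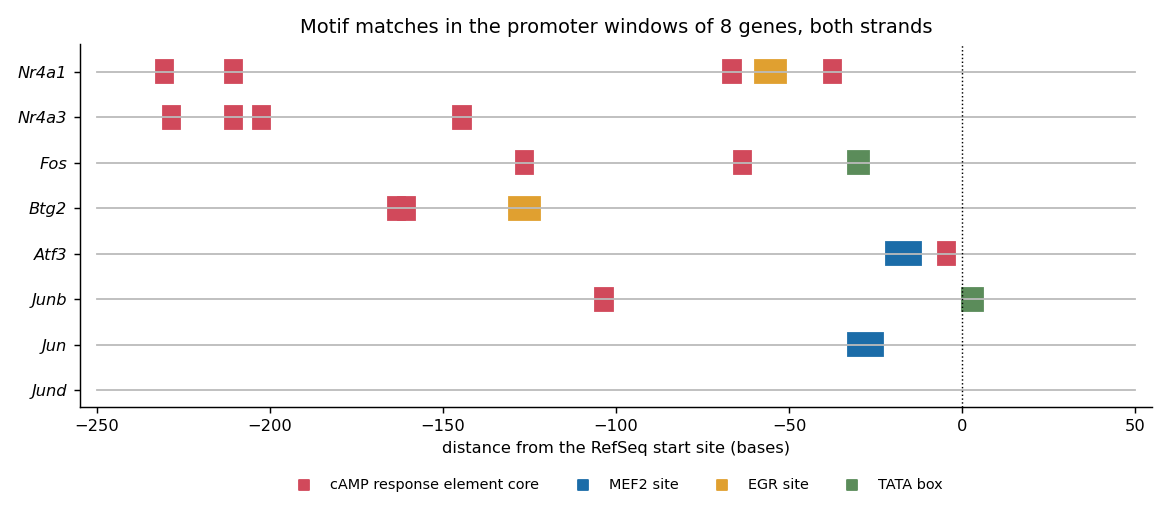
Motif matches in 8 promoter windows by distance from the RefSeq start site in bases (0, dotted line); each grey line is a window and each coloured box a match, drawn to scale. Nr4a1 and Nr4a3 hold 4 cAMP response element cores each, and the MEF2 sites of Jun and Atf3 lie just before the start.

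Egr1, a zinc finger factor that is induced by growth factors and mechanical load, followed Jun in mean level over all 6 libraries. It measured 21.1, 17.0 and 23.1 TPM in denervated muscle and 12.2, 9.49 and 12.8 TPM in control muscle. On these values every denervated muscle was above every control muscle, with mouse 2 lowest in both groups. Denervated and control means differed by 0.77 ± 0.17 on the log2 scale (limma adjusted p = 0.00321), close to the 0.71 of the median gene. After scaling the groups overlapped and the difference was -0.08 ± 0.19 (adjusted p = 0.788).

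Atf3, which is induced by stress and by nerve or tissue injury, measured 6.43, 6.08 and 8.58 TPM in denervated muscle and 2.02, 4.01 and 3.30 TPM in control muscle. The deposited values did not overlap, and mouse 2 had the smallest gap. On the deposited log2 values the difference was 0.98 ± 0.22 (limma adjusted p = 0.00312). It was 0.25 ± 0.23 after scaling (adjusted p = 0.457), where the groups overlapped, so Atf3 was called on the deposited values alone.

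Btg2, the antiproliferative gene, measured 11.4, 7.48 and 8.73 TPM in denervated muscle and 4.31, 6.83 and 6.02 TPM in control muscle. The groups were apart, but in mouse 2 the muscles nearly met. Its log2 difference was 0.60 ± 0.20 on the deposited values (limma adjusted p = 0.0230) and -0.19 ± 0.16 after scaling (adjusted p = 0.391). The deposited call was lost without control replicate 1 (0.44, adjusted p = 0.0968), without denervated replicate 1 (0.45, adjusted p = 0.0803) and without both muscles of mouse 1 (0.29, adjusted p = 0.167). Ier2, a small nuclear protein gene, was the least abundant member by its percentile, with 9.01% of tested genes below it. It measured 1.37, 1.93 and 1.95 TPM in denervated muscle and 1.17, 1.29 and 0.863 TPM in control muscle. The groups were close without overlapping, with a difference of 0.38 ± 0.17 (limma adjusted p = 0.0662), and overlapped after scaling, where it was -0.13 ± 0.16 (adjusted p = 0.581). On the deposited values Ier2 was called without denervated replicate 1 (adjusted p = 0.0297).

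**Figure D3:**
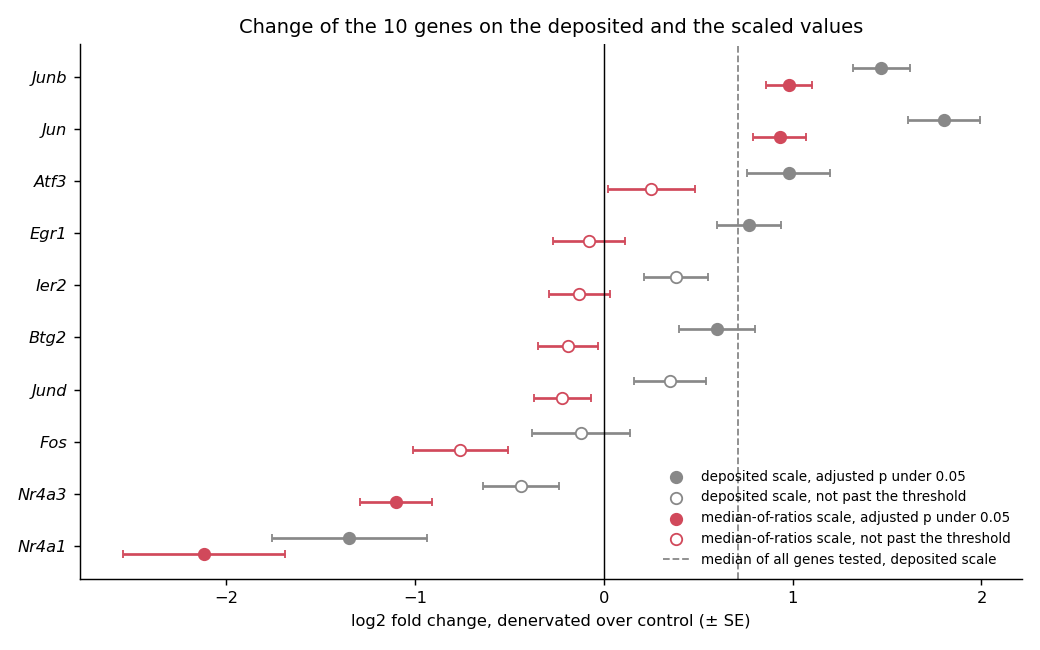
Log2 fold change of each gene, denervated over control, with its SE, on the deposited (grey) and the scaled values (red); filled points passed the threshold and the dashed line marks the median gene of the deposited values at 0.71. Jun and Junb lie above 0 and Nr4a1 below 0 with filled points on both scales.

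The members were not alike in which control muscle stood highest. On the scaled values, 7 of the 10 were highest in control replicate 2, as were 34.3% of all genes tested, and 6 were lowest in control replicate 1, as were 31.7%. Junb and Egr1 were lowest in control replicate 2, and Nr4a3 and Egr1 highest in control replicate 3. Among denervated muscles 7 of 10 were highest in replicate 3, as were 35.6% of all genes. The summed markers of some other cell types were also highest in control replicate 2, and those of others were not. Macrophage markers (7 of 8 measured) summed to 183, 179 and 124 TPM in denervated muscle, and to 63.7, 146 and 73.4 TPM in control muscle. Fibroblast markers (6 of 6) summed to 1533, 1596 and 834 TPM in denervated muscle, and to 454, 1107 and 550 TPM in control muscle. In both lists mouse 2 had the highest control muscle, as it had for Nr4a1 and Fos. Neutrophil markers were lowest there, at 5.14, 3.13 and 4.93 TPM in control replicates 1 to 3, and adipocyte markers were highest in control replicate 3, at 12.1, 29.7 and 37.5 TPM. On the deposited values 5 of 7 macrophage and 4 of 6 fibroblast markers were called higher, where 69.9% of all genes tested were. On both scales 0 of both lists were called, and their part in the values of the early genes was not tested.

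**Figure D4:**
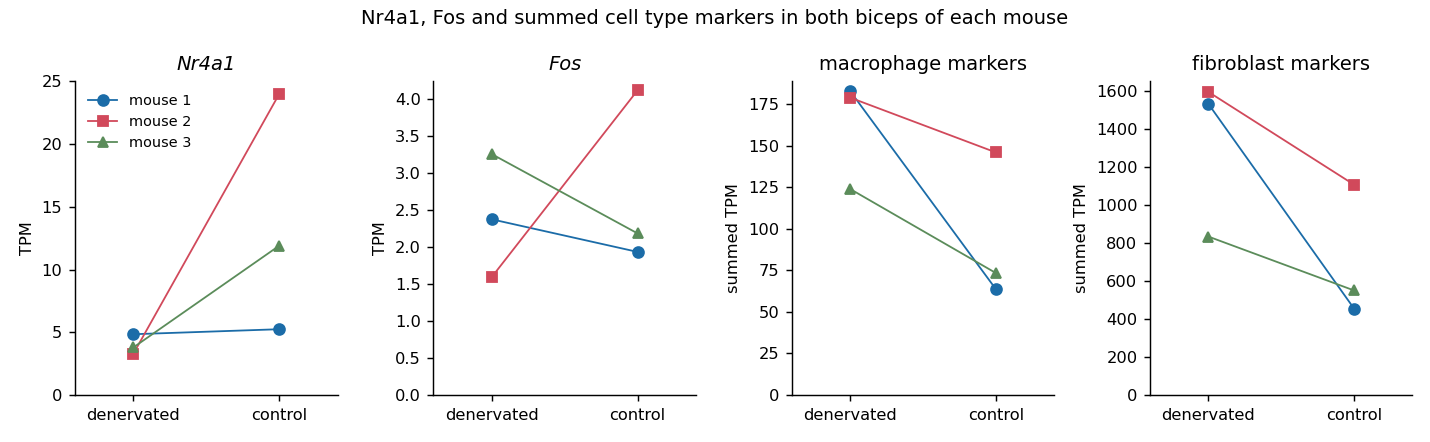
TPM of Nr4a1 and Fos and summed TPM of the macrophage and fibroblast markers in the denervated (left) and the control (right) biceps, with a line joining both muscles of a mouse. Mouse 2 has the highest control muscle in all 4 panels, at 24.0 TPM for Nr4a1 and 1107 TPM for the fibroblast markers.

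Other cell types were read through listed markers. Satellite cell markers summed to 14.4 to 17.8 TPM in denervated and 3.64 to 4.21 TPM in control muscle, and Myf5, Pax7 and Cdh15, 3 of 4 tested, rose, of which Pax7 was below 1 TPM in every control muscle and entered the test through its denervated libraries alone. Of the Schwann cell markers 2 of 3 tested fell, and Mbp, a myelin gene among them, measured 1.89 to 3.38 TPM in denervated and 12.6 to 23.8 TPM in control muscle. Adipocyte markers summed to 89.0 to 168 TPM in denervated and 12.1 to 37.5 TPM in control muscle, and Adipoq, Cidec and Plin1, 3 of 5, rose. The 2 neutrophil markers tested of 5 listed went opposite ways. S100a8 measured 26.4 to 57.4 TPM in denervated and 2.04 to 3.96 TPM in control muscle and rose, whereas S100a9 measured 0.583 to 0.931 TPM in denervated and 1.08 to 1.35 TPM in control muscle and was called lower after scaling alone (-0.73, limma adjusted p = 0.00912). Of 4 tenocyte markers Scx rose and Tnmd was called lower after scaling alone (-1.40, limma adjusted p = 0.0272), with a scaled list median of -0.57. Rgs5 fell among 5 markers of smooth muscle and pericytes. Of 8 fibre markers 5 fell, with the largest scaled changes in Myh4, Ckm, Acta1 and Tnnt3, and Myh1 was called lower after scaling alone. Ttn and Neb were instead called higher on the deposited values (0.60 and 0.88, limma adjusted p = 0.0282 and 0.00123). After scaling neither of them was called, at -0.31 and -0.03. The 6 listed lymphocyte markers had no entry under their symbols in the deposited values. No endothelial (0 of 8) or erythroid (0 of 3) marker was called on both scales, though 6 endothelial and 3 erythroid markers were called lower after scaling. Beside these counts of markers, 15.3% of all genes tested rose, 4.5% fell and 18.8% were called lower after scaling. The part of these cells in the early gene values was not tested.

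In all, 36 other immediate early genes were measured of 46 listed, and the other 10 had no entry under their symbols in the deposited values. Of the 36, 7 rose (Egr3, Fosl2, Dusp2, Cyr61, Sik1, Ier5 and Myc) and 1 fell (Gadd45g), with a median difference of 0.56 on the deposited and -0.26 on the scaled values. Among all genes tested 15.3% rose and 4.5% fell, so the counts of the list were near that background. After scaling 7 of the 36 were called higher and 8 lower, and the median stood slightly below that of all genes on both scales. Egr3, a relative of Egr1 known from muscle spindle development, measured 24.0, 14.2 and 8.34 TPM in denervated and 1.24, 0.856 and 0.742 TPM in control muscle. All denervated muscles were far above the controls but differed among themselves, and the scaled difference was 2.32 ± 0.27 (limma adjusted p = 6.83e-04). Fosl2, a Fos relative, measured 23.1, 20.3 and 16.7 TPM in denervated and 2.65, 4.20 and 2.83 TPM in control muscle, with a scaled difference of 1.54 ± 0.14 (adjusted p = 2.35e-04). Thus a Fos relative rose where Fos itself did not pass the test, and an Egr1 relative rose where Egr1 was called on the deposited values alone, though the differences between these genes were not tested. The ratio of Egr3 to Egr1 TPM was 1.14, 0.834 and 0.361 in denervated and 0.102, 0.0902 and 0.0579 in control muscle.

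Dusp2, a nuclear phosphatase of MAP kinases, measured 5.54, 2.60 and 2.41 TPM in denervated and 0.0628, 0.156 and 0.169 TPM in control muscle, with a scaled difference of 1.53 ± 0.19 (limma adjusted p = 8.38e-04). Dusp2 was below 1 TPM in every control muscle and entered the test through its denervated libraries alone, and Egr3 was below 1 TPM in 2 of 3 control muscles. Gadd45g, a stress gene of the family of Gadd45a, measured 6.92, 7.69 and 8.88 TPM in denervated and 8.91, 18.5 and 12.1 TPM in control muscle, with a scaled difference of -1.45 ± 0.25 (adjusted p = 0.00369). Its control muscles had the same order as those of Nr4a1, with mouse 2 highest and mouse 1 lowest. Dusp1, named after its values were seen, was likewise highest in control replicate 2. It measured 23.7, 21.1 and 35.8 TPM in denervated and 21.6, 50.4 and 42.8 TPM in control muscle and was called after scaling alone (adjusted p = 0.0215). Sgk1, a kinase gene and the most abundant of the list, measured 101 to 133 TPM in denervated and 56.7 to 81.6 TPM in control muscle and had a scaled difference of -0.08 ± 0.17.

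**Figure D5:**
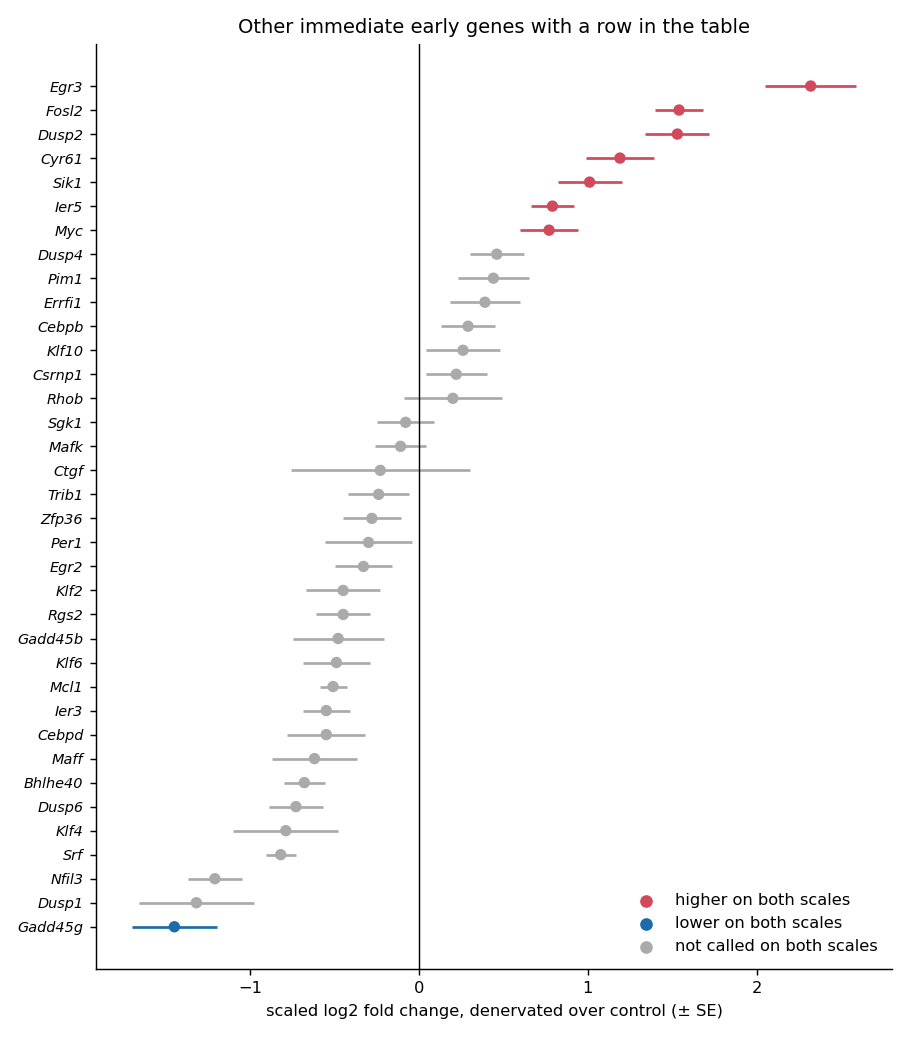
Scaled log2 fold change with its SE for 36 other immediate early genes, denervated over control, in order of size; red and blue mark genes called higher and lower on both scales, grey the rest. Egr3 is highest at 2.32 and Gadd45g lowest at -1.45, with most of the list between them and not called on both scales.

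Relatives and binding partners of the members gave 3 rises and 1 fall among 14 tested, beside 15.3% and 4.5% of all genes. After scaling 3 were called higher and 4 lower, and the list median was -0.18. Nab2, a corepressor that binds Egr proteins and is itself induced by them, measured 11.8, 10.9 and 8.58 TPM in denervated and 1.16, 1.88 and 1.45 TPM in control muscle. Its scaled difference was 1.50 ± 0.14 (limma adjusted p = 2.67e-04), and the groups were far apart. Of the Btg2 relatives, Btg1 had a scaled difference of 0.85 ± 0.11 (adjusted p = 8.77e-04) and Btg3 of 0.79 ± 0.20 (adjusted p = 0.0218). Btg3 was below 1 TPM in every control muscle, so it entered the test through its denervated libraries alone. Tob1, also of that family and the most abundant of the list, measured 59.7 to 80.7 TPM in denervated and 62.6 to 65.9 TPM in control muscle and was called lower after scaling only. Rxrg, a retinoid receptor of the RXR family that pairs with Nr4a1, fell, at 1.57, 1.39 and 1.81 TPM in denervated against 4.50, 5.31 and 4.30 TPM in control muscle. Its scaled difference was -1.78 ± 0.12 (adjusted p = 6.27e-05), and unlike Nr4a1 it had 3 similar control muscles.

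Genes for the signals that induce early genes were measured as 39 of 40 listed, and of 38 tested 7 rose and 2 fell, near the 15.3% and 4.5% of all genes. After scaling 7 were called higher and 14 lower, where 15.3% and 18.8% of all genes were. Hdac4, the deacetylase that represses MEF2 and is known to accumulate in denervated muscle, measured 60.7, 45.1 and 52.3 TPM in denervated and 6.05, 5.33 and 5.00 TPM in control muscle. Its scaled difference was 2.21 ± 0.11 (limma adjusted p = 1.93e-05), with no overlap. The calmodulin kinase II genes moved in opposite directions. Camk2d measured 104 to 125 TPM in denervated and 20.4 to 20.9 TPM in control muscle, with a scaled difference of 1.54 ± 0.10 (adjusted p = 4.76e-05). Camk2a measured 18.9 to 24.5 TPM in denervated and 63.2 to 84.6 TPM in control muscle, with a scaled difference of -2.64 ± 0.09 (adjusted p = 1.00e-05).

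Mapkapk2, the kinase downstream of p38, fell by 1.48 on the scaled values, with an adjusted p of 3.57e-05. The other risen genes of this list were Mef2a, Elk1, Camk2b, Crtc1 and Elk4. Among them Mef2a, a MEF2 factor, measured 121 to 148 TPM in denervated and 29.9 to 37.3 TPM in control muscle, and Elk1, an SRF partner, 9.63 to 12.4 TPM in denervated and 1.94 to 2.61 TPM in control muscle. Mef2c, the most abundant of the list, measured 264 to 323 TPM in denervated and 120 to 133 TPM in control muscle, with a scaled difference of 0.24 ± 0.08 (limma adjusted p = 0.0537). The median of the list was 0.75 on the deposited and -0.10 on the scaled values, close to that of all genes.

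Of 14 glucose and lipid genes described as Nr4a targets in muscle, 10 fell and 1 rose, beside 4.5% and 15.3% of all genes, with medians of -0.63 on the deposited and -1.51 on the scaled values. These were the genes for glycogen breakdown (Pygm, Phka1, Phkg1), glycolysis and related steps (Pfkm, Pgam2, Eno3, Bpgm), the phosphatase Fbp2, the transporter Slc2a4 and the lipid phosphatase Lpin1. Slc2a4, the insulin-responsive glucose transporter GLUT4, measured 27.3, 13.9 and 21.1 TPM in denervated and 61.8, 51.9 and 55.9 TPM in control muscle, with a scaled difference of -2.32 ± 0.18 (limma adjusted p = 1.09e-04). Fbp2 measured 4.01, 1.08 and 3.16 TPM in denervated and 7.92, 18.8 and 8.44 TPM in control muscle, with a scaled difference of -2.48 ± 0.35 (adjusted p = 0.00159). Eno3, the most abundant of the list, measured 633 to 821 TPM in denervated and 1540 to 1996 TPM in control muscle. Phka1 measured 16.3 to 23.1 TPM in denervated and 38.1 to 58.5 TPM in control muscle. Prkag3, an AMPK subunit, was the gene that rose, at 43.4 to 65.5 TPM in denervated against 8.21 to 9.57 TPM in control muscle. The rest of the list did not pass on both scales. Pdk4 and Ucp3 were called higher on the deposited values alone, with scaled differences of 0.36 and 0.04. Cd36 was called lower after scaling alone, at -1.33. Of the fibre markers 5 of 8 fell in the same muscles, as given above, while Ttn and Neb did not. The part of the fibre transcripts in the values of this list was not tested.

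Atf3 belongs to the integrated stress response. Of 14 genes listed for it and for the unfolded protein response, 12 were tested, and 3 rose and 0 fell, beside 15.3% and 4.5% of all genes. After scaling 3 were called higher and 3 lower, and the list median was 0.02. Asns, which makes asparagine, measured 7.11, 4.39 and 3.80 TPM in denervated and 0.805, 0.650 and 1.60 TPM in control muscle, with a scaled difference of 0.97 ± 0.24 (limma adjusted p = 0.0181). Xbp1, a factor of the unfolded protein response, had a scaled difference of 0.42 ± 0.09 (adjusted p = 0.00900). Hspa5, the chaperone of the endoplasmic reticulum and most abundant of the list, had 0.42 ± 0.12 (adjusted p = 0.0358). The 3 called lower after scaling alone were Atf4, the factor upstream of Atf3 in the integrated stress response, Ddit3 and Cebpg. Atf4 measured 36.2 to 42.6 TPM in denervated and 28.2 to 36.4 TPM in control muscle. Ddit3, also known as CHOP, had a scaled difference of -0.68 ± 0.12 (limma adjusted p = 0.00468) and Cebpg of -0.79 ± 0.09 (adjusted p = 5.55e-04). Heat shock genes, which respond to handling as well as to stress, had 4 rises among 7 tested (Hsph1, Hsp90aa1, Hspa1a and Hspb1), beside 15.3% of all genes. Hspa1a was below 1 TPM in every control muscle and entered the test through its denervated libraries alone. The list summed to 929 to 1021 TPM in denervated and 482 to 534 TPM in control muscle, where Hspa8 was most abundant, and its part in the early gene values was not tested.

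The genes most like 3 of the members over the 6 libraries were found by Pearson's r on the scaled log2 values, as a description with no test, since the libraries come from 3 mice. For Nr4a1 they were Itga1 (r = 0.998), Pdgfc (r = 0.994) and Gpr56 (r = 0.993). Before scaling Itga1, a collagen-binding integrin, measured 4.44, 3.34 and 3.56 TPM in denervated and 2.56, 4.45 and 3.12 TPM in control muscle. On those unscaled values its groups overlapped, unlike those of Nr4a1, and r takes no account of the size of a change. For Fos they included 2610019F03Rik (r = 0.992) and Erp44 (r = 0.991). For Atf3 they were Agpat9 (r = 0.995), Ap3d1 (r = 0.992) and Lpcat1 (r = 0.988). With 12268 genes to choose from and 6 points, high values of r are easily found.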

How the data were processed

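The authors deposited 1 table of log2 values per gene and library, with their own log2 fold, p-values and adjusted p-values, per the file headers. Transcripts were quantified with kallisto 0.42.1 against mm10, per the submitters' processing notes. The step from transcripts to genes, the strand of counting and the authors' test are not given in the sources used here. Per the labels' protocols, RNA was amplified before library preparation. No header names the unit. The deposited log2 values were read as log2(TPM + 1), since the linear totals were 77.3% to 80.3% of the full TPM total in denervated and 68.8% to 70.4% in control libraries. The files hold no counts, so the depth per gene is unknown and no count test or counting interval is given. The authors' log2 fold matched denervated minus control means within 6.3e-11. A spreadsheet had turned 18 symbols into dates, restored by gene ID, and 12862 IDs matched the table of gene names.

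Genes with at least 1 TPM in at least 3 libraries (12268) entered a limma model with group as its single term (limma 3.58.1, lmFit and eBayes with trend, R 4.3.3). Benjamini-Hochberg adjustment ran over all of them, and calls were made at 0.05. The model was then run on values divided by median-of-ratios factors, which were 1.61, 1.27 and 1.27 in denervated replicates 1 to 3 and 0.722, 0.786 and 0.695 in control replicates 1 to 3. The fitting script was tested on simulated data. Fold changes on the log2(TPM + 1) scale understate the change of low genes. Both muscles of a mouse carry its number in the labels, and same-mouse deviations from the group means correlated across genes at 0.312, 0.183 and 0.411. The mouse as a block was an alternative, as were the scaling, pseudocount, filter, variance trend and left-out libraries.

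The members and lists were chosen with earlier results of these data known. All members are named, and from each list the called genes with the largest scaled change, at most 4, and the most abundant gene, with other names stated as chosen after their values were seen or as the rest of a count. Some genes that this rule names are not reported here. Hdac4 stands on more than 1 row and was picked by gene ID. Promoters are from RefSeq on GRCm38.p6, matched by symbol, and were searched for 8 of 10 members. Egr1, on chromosome 18, was left out of the search, and Ier2 had no promoter window. Gene positions are from GENCODE M21 on GRCm38. Shared stretches of 31 bases were counted over its transcripts. Python 3.11.15 was used for the tables and figures.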

Additional observations from a re-analysis of the deposited data

How the results depend on the processing

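On the deposited values 8580 genes were called higher, against 1879 after median-of-ratios scaling, 2177 after quantile normalization, 1958 with the replicate block and scaling, and 5412 under the stricter filter of 5 TPM. Genes called lower numbered 552, against 2307, 2106 and 2373 under the first 3 of these. Genes called higher on both scales numbered 1879, against 926 without mouse 1 and 977 without mouse 3. Members called higher numbered 5 on the deposited values and 2 under scaling, quantile normalization and the block with scaling. Members called lower numbered 1, against 2 under scaling, 3 under quantile normalization, 2 under the block with scaling and 2 without mouse 1, and 1 to 2 when single libraries were left out. On both scales 1 was called lower, against 1 to 2 without single libraries, 2 without mouse 1 and 0 without mouse 3. Signs turned for Fos, Jund, Egr1, Ier2 and Btg2, of which Egr1 and Btg2 were called higher on the deposited values alone. The deposited Fos difference ran between -0.30 and 0.13 without single libraries and was 0.31 without mouse 2. Under scaling, with or without the block, Jund was at -0.22, Egr1 at -0.08, Ier2 at -0.13 and Btg2 at -0.19. Quantile normalization gave -0.26 for Jund, -0.21 for Ier2 and -0.16 for Btg2. On the scaled values Egr1 ran between -0.25 and 0.04 without single libraries and was 0.06 without mouse 1, and Ier2 ran between -0.21 and 0.02 and was 0.05. The replicate block alone changed no member's call, and Nr4a1 had an adjusted p of 0.00577 with it in limma. The stricter filter left out Nr4a3, Fos, Junb, Jund and Ier2. Unknown depth limits what can be said of members near 1 TPM, and the causes of these shifts were not tested.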
